A study of Mus musculus with 9 samples.

Results

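The genes described here are 36 genes of autophagy and mitophagy, taken by gene name from a table of 54532 genes, of which 36 were found and 33 had enough signal to be tested. They hold the initiation kinase complex (5 genes), the lipid kinase complexes (5), membrane supply and lipid transfer (6), the conjugation enzymes (7), the LC3 and GABARAP proteins (5), cargo receptors (4) and mitophagy factors (4). Expression was measured by poly-A RNA-seq in RAW264.7 cells, a mouse macrophage line that the labels give as wild type and with ascites as its tissue of origin, in 3 groups of 3 libraries each. Control cells were untreated, LPS cells received LPS, a component of the bacterial outer membrane, at 1 μg/ml for 6 h, and LPS + G-CDs cells received the same LPS treatment plus 400 μg/ml of G-CDs, which are carbon dots prepared from the plant Glycyrrhiza. The sample titles name G-CDs for the last group, whereas its treatment label gives LPS alone, and a group with G-CDs alone was not analysed here. Neither the labels nor the methods say whether the 3 libraries of a group came from separate cultures, so p-values measure the spread between these libraries, which may be technical.

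Autophagy encloses cytoplasm in a double membrane, the autophagosome, and delivers it to the lysosome. The ULK1 kinase complex starts the process, a lipid kinase built around Beclin 1 marks the forming membrane with a phosphoinositide, lipid carriers enlarge it, and enzymes that resemble those of ubiquitin attach LC3 and GABARAP proteins to it. Cargo receptors link the load to LC3 and GABARAP, and mitophagy factors mark damaged mitochondria for the same route. These steps run largely on protein modification, and mRNA levels do not measure their activity.

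Each library held between 14752400 and 17312255 reads on genes. Values are FPKM, the reads of a gene scaled to its length and to the library, and differences are given on the log2(FPKM + 1) scale, which understates the change of genes with low values. All 7 macrophage markers (Adgre1, Cd68, Csf1r, Itgam, Lyz2, Spi1 and Cd14) reached 1 FPKM, with a summed level of 2627 to 3601 FPKM in control, 3821 to 4037 in LPS and 3197 to 5284 in LPS + G-CDs, whereas 0 of 10 markers of other cell types reached 1 FPKM in any library (at most 0.355 FPKM in sum). The sum hides opposite changes, since 3 markers rose and 2 fell with LPS (limma, adjusted p under 0.05), 71.4% against 31.3% of all tested genes. Mean Cd14 went from 436 to 2292 FPKM, Lyz2 from 1762 to 947.5 and Csf1r from 451.2 to 201.7. Cd68 stood at 86.8, 324.4 and 418 FPKM in the control libraries. The LPS response was present in its treated libraries, with Tnf at a mean of 53.3 FPKM in control and 2512 in LPS, and Hmox1, a gene known to respond to oxidative stress, was higher in LPS + G-CDs than in LPS by 3.23 on the log2 scale (limma, adjusted p = 9.6e-05).

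The 36 genes covered a wide range of levels. In LPS cells 12 had a mean of 10 FPKM or more, 20 lay between 1 and 10, and 4 lay below 1, with a median of 7.30 FPKM beside 7.57 over all tested genes. Gabarap had the highest mean (61.9 FPKM in LPS), followed by Vmp1 (46.3) and Bnip3 (40.7), the last encoding a mitophagy receptor of the outer mitochondrial membrane. The next in order were Atg13 (19.1 FPKM ± 1.08, SD, n = 3) and Gabarapl1 (18.5 ± 0.668), which did not differ beyond their spread. At the low end, Optn, encoding the cargo receptor optineurin, had 0 to 7 reads in a library. Wipi1, encoding a protein that binds phosphoinositides on the forming membrane, had 25, 26 and 23 reads in control, 8, 3 and 3 in LPS, and 9, 21 and 10 in LPS + G-CDs. Calcoco1, a receptor for portions of the endoplasmic reticulum, lay between 0.522 and 1.10 FPKM. These 3 genes did not pass the filter of at least 1 FPKM in at least 3 libraries. Map1lc3a passed it only through the 3 LPS + G-CDs libraries and LPS replicate 3, so it was tested because it was high in LPS + G-CDs, and its difference in that comparison is given as a description.

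The genes were spread over 18 chromosomes, with at most 6 on any chromosome. The windows upstream of their RefSeq transcription starts (GRCm38.p6) were searched on both strands for 4 motifs in 29 of the 36 genes, all but Rb1cc1, Becn1, Pik3c3, Atg12, Atg16l1, Map1lc3a and Bnip3l. Over 250 bases before to 50 after the start, the E-box core CACGTG was found in 5 of 29 (17.2%), against 7.68% of all promoters and 10.8% of those of tested genes. These were Atg3, Atg5, Atg7, Atg14 and Bnip3, of which Atg7 and Atg14 have a RefSeq start 27999 and 2215 bases from the deposited 5′ end, so their windows may not be the promoter of the transcripts measured. The antioxidant response element core TGACNNNGC was found in 4 (13.8%, against 13% and 15.1%), the AP-1 letters TGANTCA, which can overlap TGACNNNGC, in 0 (against 7.34% and 4.67%), and the kappaB element in 0 (against 4.62% and 4.9%). The 250 bases before the start are shown for Vmp1 and Atg13, which had the largest changes with LPS, and for Gabarapl1 and Atg5, which had the smallest p-values with G-CDs, with a motif match in capitals. Vmp1 lies at chr11:86683837-86684086 on the minus strand, with TGACNNNGC on the opposite strand starting 168 bases before the start. Atg13 lies at chr2:91710593-91710842 on the minus strand, with the same motif on the opposite strand 242 bases before it. Gabarapl1 lies at chr6:129532942-129533191 on the plus strand and holds none of the 4. Atg5 lies at chr10:44268089-44268338 on the plus strand, with CACGTG 14 bases before the start.
Vmp1: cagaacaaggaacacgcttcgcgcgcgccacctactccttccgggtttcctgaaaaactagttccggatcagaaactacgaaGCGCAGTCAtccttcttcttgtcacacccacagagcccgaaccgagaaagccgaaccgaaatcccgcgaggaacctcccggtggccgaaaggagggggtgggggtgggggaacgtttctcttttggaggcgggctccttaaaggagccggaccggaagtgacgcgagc
Atg13: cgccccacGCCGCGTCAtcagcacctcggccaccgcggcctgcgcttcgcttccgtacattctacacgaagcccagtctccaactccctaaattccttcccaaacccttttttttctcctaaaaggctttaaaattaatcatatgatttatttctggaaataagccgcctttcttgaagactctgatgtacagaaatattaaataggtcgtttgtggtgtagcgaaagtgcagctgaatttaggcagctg
Gabarapl1: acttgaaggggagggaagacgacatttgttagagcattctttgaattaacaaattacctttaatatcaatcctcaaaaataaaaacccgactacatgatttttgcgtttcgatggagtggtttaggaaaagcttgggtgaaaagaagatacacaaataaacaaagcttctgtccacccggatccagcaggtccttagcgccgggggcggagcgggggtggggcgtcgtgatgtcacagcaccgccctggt
Atg5: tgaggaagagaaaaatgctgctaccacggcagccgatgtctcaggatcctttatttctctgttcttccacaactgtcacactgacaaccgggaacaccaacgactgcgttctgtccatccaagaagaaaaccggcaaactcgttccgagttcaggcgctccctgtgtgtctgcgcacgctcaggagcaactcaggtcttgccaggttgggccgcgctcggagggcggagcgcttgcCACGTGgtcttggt
The motifs are matches of letters only, and their use by a factor was not measured.

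The comparison of LPS with control asks how the autophagy machinery responds at the mRNA level to an inflammatory stimulus. Of the 33 tested genes, 6 rose in LPS and 0 fell at an adjusted p under 0.05 (limma, Benjamini-Hochberg over 11585 genes). They were Vmp1, Atg13, Rb1cc1, Wipi2, Gabarapl1 and Tax1bp1. With the replicate number as a block, 7 were called higher and 2 lower, beside 18.3% and 17.2% of all tested genes. The same genes were called with the 6 libraries of the comparison alone, beside 18.1% and 17.4%. In both fits Atg9a was added on the higher side, and Bnip3 and Ulk1 were lower. The share of the 6 genes called without a block, 18.2%, stood beside 31.3% of all tested genes, of which 15.8% were higher and 15.6% lower. At an unadjusted p under 0.05 there were 11 (33.3%, against 41.9% of all genes), and 5 passed p under 0.01 with over 1.5-fold on the log2(FPKM + 1) scale (23.1% of all genes), to which the ratio of mean FPKM would add Tax1bp1. The median difference of the 33 was -0.01 beside 0.02 over all genes, with 16 genes on the higher side (48.5%, against 51% of all genes) and 17 on the lower, and groups did not overlap for 8 higher (27.4% of all genes) and 8 lower (25.1%).

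**Figure D1:**
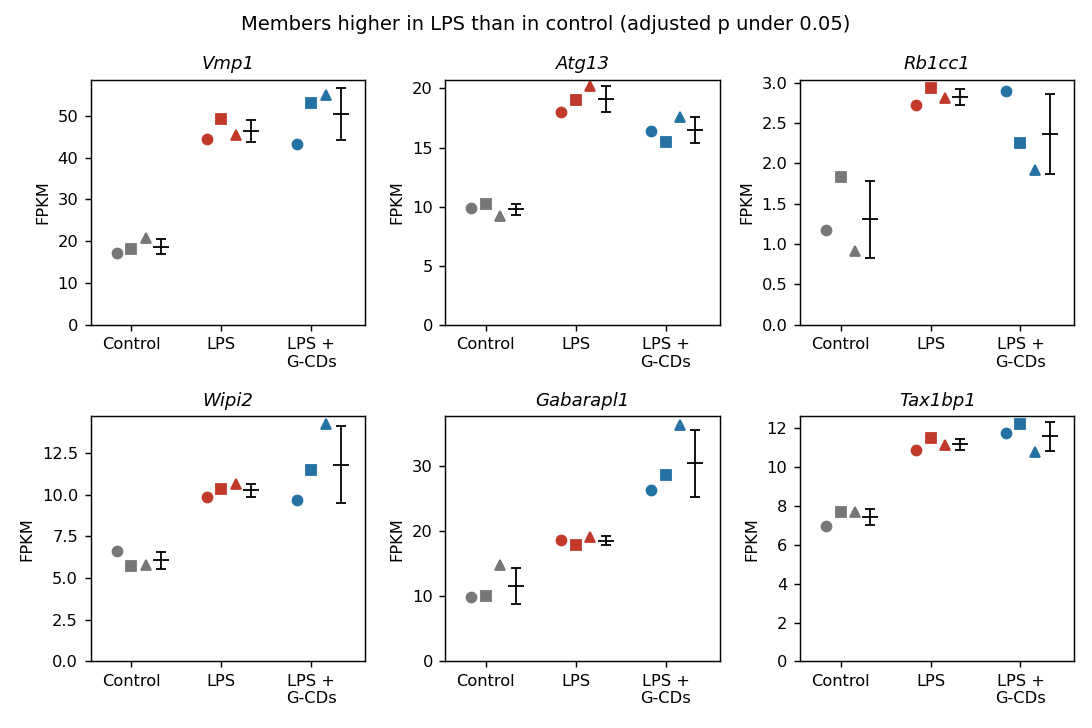
FPKM (vertical axis, from 0) of the 6 genes that rose with LPS, in control, LPS and LPS + G-CDs libraries. Circles, squares and triangles are replicates 1, 2 and 3, and the black mark is the mean with its SD (n = 3). In every panel the LPS libraries lie above all control libraries, and the mean of Gabarapl1 goes from 11.6 in control to 18.5 in LPS and 30.4 in LPS + G-CDs.

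Membrane supply and lipid transfer held the largest rise. Vmp1 encodes a membrane protein of the endoplasmic reticulum that moves lipids between membrane leaflets and is needed for the autophagosome to form (chromosome 11, 86583865 to 86683836). It stood at 17.2, 18.1 and 20.7 FPKM in control and at 44.3, 49.2 and 45.3 in LPS. Its lowest LPS library was thus above the highest control library, the means differed by 2.48-fold, and the difference was 1.27 (95% interval 0.97 to 1.57, SE 0.13, adjusted p = 0.000118). Mir21a, a microRNA gene on the same strand, overlapped 2.38% of its exon bases, and reads there cannot be assigned to either gene.

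Wipi2, the phosphoinositide reader that brings the Atg16l1 complex to the membrane (chromosome 5, 142627698 to 142670588), stood at 6.61, 5.74 and 5.81 FPKM in control and at 9.83, 10.3 and 10.6 in LPS. The groups did not overlap, and Wipi2 rose by 0.68 (0.36 to 0.99, SE 0.14, adjusted p = 0.00613). This call was lost when a trend with gene length was removed from each library (0.50, adjusted p = 0.126), the highest adjusted p among 20 alternatives, of which the lowest was 0.00176.

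Atg9a, the lipid scramblase of the vesicles that seed the autophagosome, lay at 4.62, 6.18 and 3.22 FPKM in control and at 8.70, 7.18 and 7.06 in LPS. The groups did not overlap, but the difference of 0.64 (0.04 to 1.24, SE 0.26) had an adjusted p of 0.102, and 0.0371 with the replicate number as a block or 0.042 without LPS + G-CDs replicate 3, in a range of 0.0371 to 0.403 over the alternatives. Exons of Ankzf1, on the opposite strand, and of Gm29253 covered 32.6% of the exon bases of Atg9a. The library kit did not keep strand, and Ankzf1 stood at a mean of 4.92 FPKM in control and 5.18 in LPS. The lipid carriers Atg2b and Atg2a had differences of 0.43 and 0.08 and were not called. Wipi1, which was below the filter, had a mean of 0.314 FPKM in control and 0.0758 in LPS, and with all genes admitted its difference of -0.29 had an adjusted p of 0.0122.

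In the initiation kinase complex 2 of 5 genes were called, both higher, where 15.8% of all tested genes were called higher. Atg13, the regulatory subunit that binds the kinase (chromosome 2, 91674618 to 91710576), stood at 9.86, 10.2 and 9.24 FPKM in control and at 18.0, 19.0 and 20.2 in LPS. The libraries were close together within each group, the means differed by 1.95-fold, and Atg13 rose by 0.90 (0.66 to 1.14, SE 0.10, adjusted p = 0.000231). Rb1cc1 encodes FIP200, the scaffold of the complex (chromosome 1, 6206197 to 6276648), and stood at 1.17, 1.83 and 0.914 FPKM in control and at 2.73, 2.93 and 2.81 in LPS. The control libraries varied more than the LPS libraries but did not reach them, and Rb1cc1 rose by 0.75 (0.36 to 1.14, SE 0.17, adjusted p = 0.0101). Over 19 alternatives its adjusted p ranged from 0.00483 to 0.0822, the latter with TPM scaling (0.58).

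The kinase gene Ulk1 pointed the other way, at 3.62, 3.16 and 2.48 FPKM in control and 2.06, 1.62 and 2.05 in LPS. Its groups did not overlap, and the difference of -0.48 (-0.87 to -0.09, SE 0.17) missed the threshold with an adjusted p of 0.0612. It passed in 8 of 19 alternatives, in a range of 0.0163 to 0.191 over all of them. Among the 8 were the replicate number as a block (0.0372), limma's voom on reads (0.0451) and the fits without control replicate 3 (0.0451) or LPS + G-CDs replicate 1 (0.0317). The others were the 6 libraries of the comparison alone, TPM scaling, quantile normalization and removal of the gene-length trend. Atg101, which stabilises Atg13 in the complex, had 20.6, 12.1 and 18.8 FPKM in control and 11.1, 10.6 and 11.3 in LPS, a difference of -0.57 (adjusted p = 0.18). Ulk2, the paralog of Ulk1, had a difference of -0.06.

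None of the 5 lipid kinase genes was called by limma or by voom, and differences ranged from -0.33 to 0.22. An unadjusted p under 0.05 (limma) was seen for 1 (20%, against 41.9% of all tested genes). Pik3c3 encodes the catalytic subunit VPS34 and stood at 10.3, 8.61 and 8.24 FPKM in control and 6.92, 7.07 and 6.90 in LPS. Its groups did not overlap, and the difference of -0.33 (-0.60 to -0.06, SE 0.12) had an adjusted p of 0.0656, or 0.0462 without LPS + G-CDs replicate 3, in a range of 0.0107 to 0.166. Uvrag, the subunit of the endosomal form of the complex, had a difference of -0.29 (adjusted p = 0.124), also without overlap, and passed the threshold with the gene-length trend removed (-0.42, adjusted p = 0.0127) and with quantile normalization (-0.36, adjusted p = 0.0463), in a range of 0.0127 to 0.305 over the alternatives. Becn1 (-0.03), the subunit Atg14 that directs the complex to autophagy (0.03) and the regulatory subunit Pik3r4 (0.22) had intervals that included 0. For Becn1, exons of Cntd1 on the opposite strand covered 43.9% of the exon bases, at a mean of 0.438 FPKM for Cntd1 in control and 0.176 in LPS.

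The 7 conjugation enzymes had differences from -0.28 to 0.04, all negative with TPM scaling. None was called by limma or by voom, and 0 had an unadjusted p under 0.05, against 41.9% of all tested genes. The enzymes of the LC3 and Atg12 conjugation were Atg7 (-0.01), Atg3 (0.04), Atg10 (-0.06) and the protease Atg4b (-0.04), and the conjugate they build consists of Atg5, Atg12 (-0.11) and Atg16l1 (0.04). Atg5 had the largest difference, from 10.8, 11.8 and 12.5 FPKM in control to 8.80, 9.45 and 10.03 in LPS (-0.28, -0.60 to 0.03, SE 0.14, adjusted p = 0.158).

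Of the LC3 and GABARAP genes, whose products are attached to the autophagosome membrane, 1 of 5 was called (20%, against 31.3% of all tested genes). Gabarapl1 (chromosome 6, 129533160 to 129542346) stood at 9.83, 10.1 and 14.8 FPKM in control and at 18.6, 17.8 and 19.1 in LPS. Control replicate 3 was above the other control libraries but below every LPS library, and Gabarapl1 rose by 0.66 (0.26 to 1.05, SE 0.17, adjusted p = 0.0199). The call was lost without control replicate 1 (adjusted p = 0.0589), control replicate 2 (0.0641) and LPS replicate 1, 2 or 3 (0.0644, 0.0547 and 0.0689), while the difference stayed between 0.56 and 0.68. The antisense gene 1700101I11Rik covered 28.3% of its exon bases and stood at 0 FPKM in all control and LPS libraries. Gabarap (0.13), Gabarapl2 (-0.04), Map1lc3b (-0.14) and Map1lc3a (0.14) had intervals that included 0. The summed level of the 5 genes was 92.0 FPKM ± 25.9 (SD, n = 3) in control and 101.3 ± 1.45 in LPS, and Gabarapl1 made up 12.7% ± 0.474 of it in control and 18.3% ± 0.912 in LPS.

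Of the 4 cargo receptor genes 2 were tested. Tax1bp1, a receptor for ubiquitinated cargo (chromosome 6, 52713729 to 52766780), stood at 6.95, 7.70 and 7.66 FPKM in control and 10.9, 11.5 and 11.1 in LPS. The groups did not overlap, and Tax1bp1 rose by 0.53 (0.30 to 0.76, SE 0.10, adjusted p = 0.00389), a call that was lost with the gene-length trend removed (0.37, adjusted p = 0.0736) and with TPM scaling (0.29, adjusted p = 0.205), against a lowest adjusted p of 0.00293 among the alternatives. Nbr1, another receptor for ubiquitinated cargo, had a difference of 0.16.

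All 4 mitophagy factors had negative differences, from -0.35 to -0.16, also under every other scaling. By limma 0 were called and 2 had an unadjusted p under 0.05 (50%, against 41.9% of all tested genes). Voom called 1, where it called 31.7% of all tested genes. Bnip3 stood at 48.5, 55.0 and 53.2 FPKM in control and 38.8, 42.9 and 40.4 in LPS, without overlap. Its difference of -0.35 (-0.63 to -0.07, SE 0.12) had an adjusted p of 0.057, and of 0.0394 with the replicate number as a block, 0.0482 with voom, 0.0446 without control replicate 1 and 0.0363 without LPS + G-CDs replicate 1, in a range of 0.00767 to 0.186. The threshold was passed in 7 of 20 alternatives, the others being the 6 libraries of the comparison alone, TPM scaling and quantile normalization. Of the stretches of 50 bases in its longest transcript 62.4% also occurred in transcripts of other genes, so its level depends on how shared reads were counted. Bnip3l, which encodes the related receptor NIX, had a difference of -0.34 (adjusted p = 0.0623, or 0.0408 without LPS + G-CDs replicate 3, in a range of 0.0103 to 0.226), and shared 23.4% of its stretches with the pseudogene Bnip3l-ps. Fundc1, a receptor of the outer mitochondrial membrane (-0.23), and Pink1, the kinase that marks damaged mitochondria (-0.16), were not called. Pink1 had a narrow LPS group, at 1.46, 1.46 and 1.47 FPKM, below its lowest control library of 1.65. These values rest on only 54, 54 and 57 reads in LPS and 92, 75 and 84 in control.

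The number of calls depended on scaling. When each library was rescaled to a common sum (TPM), the median of all tested genes moved from 0.02 to -0.21, and 4 of the 36 genes were called higher (Atg13, Gabarapl1, Vmp1 and Wipi2) and 7 lower (Atg101, Atg5, Bnip3, Bnip3l, Fundc1, Pik3c3 and Ulk1), where 8.76% of all tested genes were called higher and 26.8% lower. With quantile normalization 6 were called higher and 5 lower, beside 14.1% and 20.3% of all tested genes.

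**Figure D2:**
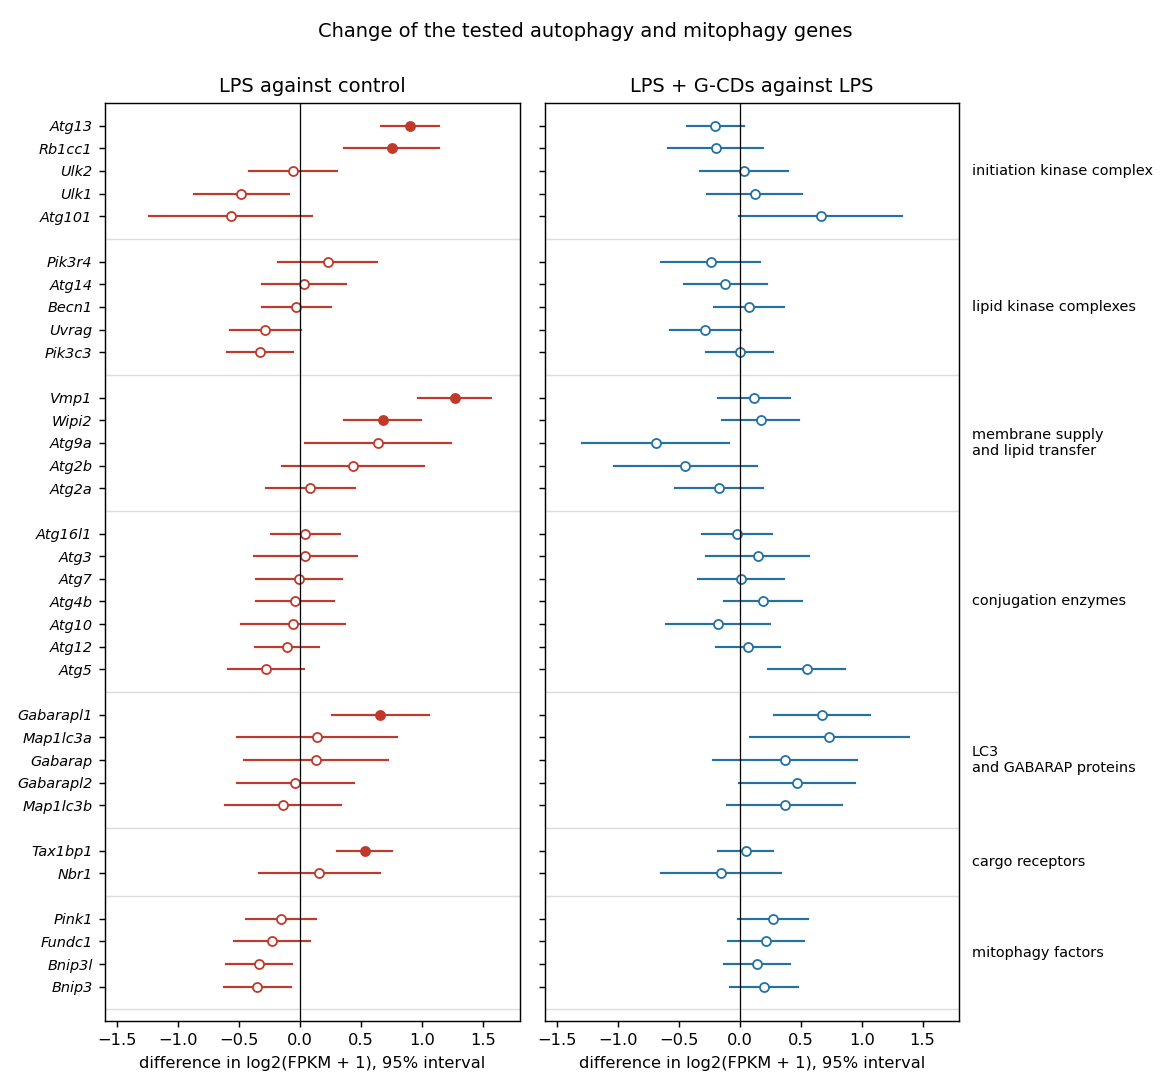
Difference in log2(FPKM + 1) with its 95% interval (limma) for the 33 tested genes, grouped by role, for LPS against control (left) and LPS + G-CDs against LPS (right). Filled points have an adjusted p under 0.05. Filled points are 6 on the left, all above 0, and 0 on the right, where the LC3 and GABARAP genes (Map1lc3a being tested only through its high LPS + G-CDs libraries) and the 4 mitophagy factors lie above 0 (3 of the 4 factors with TPM scaling or with the gene-length trend removed).

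The comparison of LPS + G-CDs with LPS asks what G-CDs changed in cells that also received LPS, and it uses the same LPS libraries as the comparison above. None of the 33 genes was called by limma or by voom, beside 0.492% of all tested genes, of which 0.25% were higher and 0.242% lower. At an unadjusted p under 0.05 there were 4 by limma (12.1%, against 15.2% of all genes) and 5 by voom. Those by limma were Atg5 and Gabarapl1, with positive differences, Atg9a, with a negative one, and Map1lc3a, which was tested only because it was high in LPS + G-CDs, so that 3 are left without it. Voom had Atg5, Gabarapl1 and Atg9a in common with limma, and in addition Gabarapl2 and Atg101 but not Map1lc3a. Gabarapl1 passed p under 0.01 with over 1.5-fold on the log2(FPKM + 1) scale, as did 2.49% of all genes, and Atg5 passed with its ratio of mean FPKM (1.52) but not on that scale. The median difference was 0.08 beside 0.02 over all genes, with 21 genes on the higher side (63.6%, against 52% of all genes). With TPM scaling 13 were on that side (39.4%, against 36.8% of all genes). No overlap between the groups was seen for 6 higher (12.9% of all genes) and 3 lower (15%). Without Map1lc3a, 20 genes were on the higher side and 5 were higher without overlap.

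Gabarap, Gabarapl1, Gabarapl2 and Map1lc3b, the LC3 and GABARAP genes above 1 FPKM in every library, had positive differences of 0.37 to 0.67, and each stayed positive in the alternatives it was tested in. Without LPS + G-CDs replicate 3 the differences were 0.15 for Gabarap, 0.17 for Map1lc3b, 0.25 for Gabarapl2 and 0.54 for Gabarapl1, and without replicate 1 they were 0.58, 0.55, 0.67 and 0.77. Gabarapl1 stood at 18.6, 17.8 and 19.1 FPKM in LPS and at 26.3, 28.6 and 36.2 in LPS + G-CDs. The groups did not overlap, the means differed by 1.64-fold, and the difference was 0.67 (0.28 to 1.07, SE 0.17, adjusted p = 0.185). It stayed positive in all 20 alternatives, from 0.44 to 0.77, with adjusted p from 0.0585 to 0.575. Several of these cannot change a difference in this comparison, only its p-values. They are the other filters, eBayes without trend, the 6-library fit, the block and each control library left out. The antisense gene 1700101I11Rik, which was at 0 in LPS, had a mean of 0.121 FPKM in LPS + G-CDs.

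Map1lc3a, a less abundant LC3 gene, stood at 0.613, 0.736 and 1.28 FPKM in LPS and 1.35, 1.68 and 3.68 in LPS + G-CDs. These values rest on 10, 12 and 22 reads and on 23, 33 and 61 reads. LPS replicate 3 came close to LPS + G-CDs replicate 1, and the difference was 0.73 (0.08 to 1.39, SE 0.29, adjusted p = 0.317). Since the filter admitted Map1lc3a through LPS + G-CDs, this difference supports nothing about the family.

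Gabarapl2, whose product is also known as GATE-16, stood at 16.6, 15.8 and 15.1 FPKM in LPS and 16.7, 21.6 and 30.6 in LPS + G-CDs (0.47, -0.01 to 0.94, SE 0.21, adjusted p = 0.326). Gabarap, the family's most abundant gene, stood at 60.7, 64.9 and 60.2 FPKM and at 59.8, 78.9 and 109.2 (0.37, -0.22 to 0.96, SE 0.26, adjusted p = 0.419). LPS + G-CDs replicate 1 was just above the highest LPS library for Gabarapl2 and just below the lowest for Gabarap, and replicate 3 was far above LPS in both. Map1lc3b, the LC3 gene used most as an autophagosome marker, had 4.29, 3.73 and 4.48 FPKM in LPS and 4.15, 5.56 and 7.71 in LPS + G-CDs (0.37, -0.11 to 0.84, SE 0.21, adjusted p = 0.358), with replicate 1 inside the LPS range. The summed level of the family was 108.3, 136.4 and 187.4 FPKM in the LPS + G-CDs libraries, a mean of 144 ± 40.1 (SD, n = 3) beside 101.3 ± 1.45 in LPS. Within it, Gabarapl1 made up 21.5% ± 2.52 and Gabarap 57.1% ± 1.65, against 18.3% ± 0.912 and 61.1% ± 1.66 in LPS.

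Among the conjugation enzymes, Atg5 (chromosome 10, 44268358 to 44364291) had 8.80, 9.45 and 10.03 FPKM in LPS and 12.1, 13.7 and 17.2 in LPS + G-CDs. The groups did not overlap, and the difference of 0.55 (0.23 to 0.86, SE 0.14) had an adjusted p of 0.172, with a range from 0.051 to 0.53 over the alternatives. Its LPS + G-CDs mean of 14.4 FPKM lay above the control mean of 11.7. The other 6 enzymes had differences from -0.18 (Atg10) to 0.19 (Atg4b).

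In the initiation complex, Atg101 stood at 11.1, 10.6 and 11.3 FPKM in LPS and 11.3, 18.1 and 27.9 in LPS + G-CDs (0.66, -0.01 to 1.33, SE 0.29, adjusted p = 0.325). Replicate 1 was barely above the highest LPS library and replicate 3 was far above it, and the difference was 0.36 without replicate 3 and 0.39 with the gene-length trend removed. Atg13, which rose with LPS, had 16.4, 15.4 and 17.6 FPKM in LPS + G-CDs, below all LPS libraries (-0.20, -0.44 to 0.04, SE 0.10, adjusted p = 0.339). Rb1cc1 (-0.20), Ulk1 (0.12) and Ulk2 (0.04) had intervals that included 0.

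Among the genes of membrane supply and lipid transfer, Atg9a had 6.31, 4.59 and 2.72 FPKM in LPS + G-CDs against 8.70, 7.18 and 7.06 in LPS. The groups did not overlap, and the difference was -0.69 (-1.29 to -0.09, SE 0.26, adjusted p = 0.310), or -0.43 without LPS + G-CDs replicate 3, with Ankzf1, which overlaps it, at means of 5.18 and 5.07 FPKM. Atg2b had 8.55, 5.02 and 3.76 FPKM in LPS + G-CDs and 8.05, 8.07 and 7.46 in LPS (-0.45, -1.03 to 0.14, SE 0.26, adjusted p = 0.359), with replicate 1 above all LPS libraries and replicate 3 at its lowest. The difference was -0.73 without LPS + G-CDs replicate 1, -0.22 without replicate 3 and -0.11 with the gene-length trend removed. Atg2a had a difference of -0.17. Vmp1 and Wipi2, which rose with LPS, had differences of 0.12 (adjusted p = 0.599) and 0.17 (adjusted p = 0.473) against LPS, with 43.3, 53.0 and 54.9 FPKM and 9.70, 11.5 and 14.2 FPKM. The sign for Vmp1 depended on scaling, at -0.05 with TPM, where the median of all tested genes was -0.12.

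In the lipid kinase complexes 4 of 5 differences were negative (5 with TPM and 3 with quantile normalization), from -0.29 to 0.08. Uvrag stood at 8.38, 8.35 and 8.29 FPKM in LPS and 7.76, 6.65 and 5.73 in LPS + G-CDs, without overlap (-0.29, -0.58 to 0.01, SE 0.13, adjusted p = 0.326). With the gene-length trend removed this difference shrank to -0.06.

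The 4 mitophagy factors, which had negative differences with LPS, had positive differences of 0.14 (Bnip3l) to 0.27 (Pink1) against LPS, with 1 of them at -0.02 under TPM scaling and 1 at -0.01 with the gene-length trend removed. The smallest of the 4 was 0.059 without LPS replicate 3 and 0.065 without LPS + G-CDs replicate 3. Of the 4, 0 were called or had an unadjusted p under 0.05 (limma), nor were any called by voom. Both comparisons use the same LPS libraries, so the signs of their differences are not independent. Pink1 had 1.58, 2.09 and 2.29 FPKM in LPS + G-CDs, above its LPS libraries (adjusted p = 0.326). Tax1bp1 (0.05) and Nbr1 (-0.16) had intervals that included 0.

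The LPS + G-CDs libraries differed from each other by gene length, and the control libraries did so to a smaller extent. The median SD between replicates of the 33 genes was 0.20 in control, 0.07 in LPS and 0.23 in LPS + G-CDs on the log2 scale, beside 0.24, 0.09 and 0.26 over all tested genes. Of the 17 genes of 5000 bases or less, 15 had their highest LPS + G-CDs value in replicate 3 and 1 in replicate 1. Of the 16 longer genes, 9 had it in replicate 1 and 6 in replicate 3. The median deviation of the shorter genes from the group mean was -0.20 in replicate 1 and 0.22 in replicate 3, and that of the longer genes was 0.15 and -0.09. In control the shorter genes deviated by -0.10 in replicate 1 and 0.10 in replicate 3, and the longer genes by 0.04 and -0.17, whereas in LPS the shorter genes deviated by -0.01 in both. With a smooth length trend removed from each library, the differences against LPS were 0.44 for Gabarapl1, 0.46 for Map1lc3a, 0.35 for Atg5, 0.26 for Gabarapl2, 0.12 for Gabarap, 0.53 for Map1lc3b and -0.61 for Atg9a, and 0 of the 33 genes were called.

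**Figure D3:**
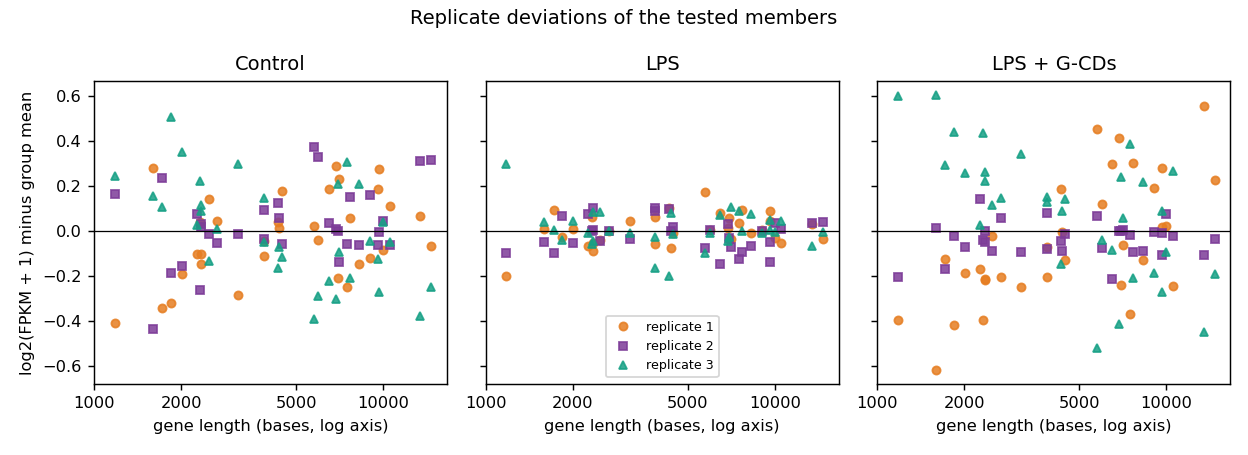
Deviation of each library from its group mean in log2(FPKM + 1) (vertical axis) against gene length in bases (log axis) for the 33 tested genes, in control, LPS and LPS + G-CDs. Each point is a gene in a library, and marker shapes give the replicate. In LPS + G-CDs, triangles (replicate 3) lie mostly above 0 for short genes and circles (replicate 1) below, with a smaller spread of the same kind in control, while the LPS libraries stay close to 0.

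A further 67 genes of the pathway, listed by role, set these changes in context, and 62 of them were tested. With LPS 12 rose and 8 fell (32.3% called, against 31.3% of all genes), and 11, 10 and 10 were called without LPS replicate 1, 2 and 3, and 13 without LPS + G-CDs replicate 2, where the share of all genes called was 21.7%, 21.4%, 21.5% and 26.3%. Against LPS, G-CDs raised 1 of the 62 (Sqstm1, 1.61%, against 0.492% of all genes), with 6 at an unadjusted p under 0.05 (9.68%, against 15.2% of all genes). Sqstm1 encodes p62, the cargo receptor that binds ubiquitinated load and LC3 and also sequesters Keap1, the inhibitor of Nrf2. It stood at 58.4, 48.4 and 58.8 FPKM in control, 211.5, 198.7 and 216.4 in LPS, and 463.8, 532.7 and 575.2 in LPS + G-CDs. The 3 groups did not overlap at any step, and Sqstm1 rose by 1.91 with LPS (SE 0.14, adjusted p = 1.51e-05) and by a further 1.32 with G-CDs (0.99 to 1.64, SE 0.14, adjusted p = 0.00684). The G-CDs call was lost without LPS replicate 1 (adjusted p = 0.0678), LPS replicate 2 (0.0742) or LPS + G-CDs replicate 2 (0.0665), with differences of 1.33, 1.28 and 1.30, and its adjusted p over the alternatives ranged from 0.00118 to 0.0742. The opposite-strand gene Mrnip covered 17.3% of its exon bases, at a mean of 1.04 FPKM in LPS + G-CDs.

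Of 17 tested upstream regulators 2 rose and 3 fell with LPS (29.4%, near the 31.3% of all genes). Tfeb, the transcription factor known for switching on lysosome and autophagy genes, fell by 2.14 on the log2 scale, from 4.24, 4.75 and 5.73 FPKM to 0.459, 0.192 and 0.376 (SE 0.17, adjusted p = 2.52e-05). The related factor Tfe3 rose by 0.50. Sesn2, an inhibitor of the growth kinase mTORC1, rose by 1.96, from a mean of 8.06 to 34.1 FPKM, and Deptor, a binding partner of mTOR, fell by 1.05. Tfeb passed the filter only through the control libraries and LPS + G-CDs replicate 3, and Deptor only through the control libraries. Both were thus tested because they were high in control, and their falls, though counted above, are given as a description. Stk11, the kinase upstream of AMPK, fell by 0.44.

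In the remaining machinery of initiation, membranes and conjugation, 4 of 12 rose and 1 fell with LPS (41.7%, against 31.3% of all tested genes). Ambra1, a Beclin 1 partner, rose by 0.82, Sh3glb1, a membrane-bending partner of Uvrag, by 0.60 and the protease genes Atg4d and Atg4a by 0.39 and 0.38, whereas Atg9b, the paralog of Atg9a, fell by 1.28 (adjusted p = 8.46e-05). Among 8 tested cargo receptors and adaptors 3 were called (37.5%). Tollip rose by 0.63 and Tex264, a receptor for the endoplasmic reticulum, fell by 0.77, beside the rise of Sqstm1. Of 12 tested mitophagy regulators 2 were called (16.7%). Tbk1, a kinase of cargo receptors, rose by 0.77 and the mitochondrial ubiquitin ligase gene Marchf5 by 0.60. Of 13 genes for the fusion of autophagosomes with lysosomes 2 rose and 3 fell (38.5%, against 31.3%). These were Snap29 (0.47) and Vps33a (0.38) on the higher side and Ykt6 (-0.50), Vps18 (-0.49) and Plekhm1 (-0.49) on the lower side. Of these calls, those of Atg4d, Snap29, Tex264, Tfe3, Vps18 and Plekhm1 were lost in 12, 10, 7, 6, 6 and 5 of 20 alternatives, and those of Atg4a, Vps33a and Stk11 in 9, 8 and 6. Those of Sh3glb1 and Ykt6 were lost in 2 each, and those of Ambra1, Tbk1 and Tollip in 1 each. Stk11, Atg4a and Vps33a fell beyond the 4 largest changes of their lists and were named after their values were seen. RNA was taken from whole cultures, so less RNA per cell and fewer cells with the RNA cannot be told apart.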

How the data were processed

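Poly-A RNA-seq of RAW264.7 cells was analysed in 3 groups of 3 libraries, grouped by sample title. The authors deposited FPKM values per gene, that is, fragments scaled to gene length and to a library size they set, after sequencing on an Illumina instrument; the submitters' processing notes name GRCm38 and mm10, and the aligner, the counter and the test are not given in the sources used here. The library kit does not mark strand. FPKM multiplied by gene length gave whole multiples of 1 read to within 0.05 reads for 100.0% of nonzero values, and the reads recovered in this way served for depth and for voom. Intervals are limma's 95% intervals of a difference. The library size behind FPKM was 1.108 to 1.14 times the reads on genes in control, 0.929 to 0.936 times in LPS and 0.88 to 0.98 times in LPS + G-CDs, so a scaling between libraries is already in the values. All value columns were mapped to samples by name, with 0 columns of other samples.

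Genes with at least 1 FPKM in at least 3 of 9 libraries (11585) were fitted as log2(FPKM + 1) with limma 3.58.1 in R 4.3.3 (1 model of 3 group means, eBayes with trend, two-sided tests, Benjamini-Hochberg over all genes tested). The step was also run on simulated data with independent noise for each gene and the same spread in all groups. That run lacks the gene-length trend and the unequal group spreads of these libraries, so it does not test the step under them. Genes count as called at an adjusted p under 0.05, and a further rule follows the study's threshold (p under 0.01 and over 1.5-fold, read here on the log2(FPKM + 1) scale). Alternatives were a pseudocount of 0.1, no filter, a filter at 5 FPKM, eBayes without trend, quantile normalization, TPM or median-of-ratios scaling, a fit of only the 6 libraries compared, limma's voom on reads with scaling by the trimmed mean of M-values, removal of a gene-length trend, the replicate number as a block, and each library left out. Replicate numbers recur across groups. After subtraction of the group mean, control and LPS libraries with the same number had correlations of 0.103, 0.137 and 0.113. Each was over the limit of 0.1, so the numbers were taken to pair them. The main fit does not use this pairing, and the fit with the block is given as an alternative. For LPS and LPS + G-CDs the values were 0.095, 0.08 and 0.143, which are not all over the limit. Where the pairing comes from is not stated.

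The genes and lists were chosen with earlier results of these data known. Full values are given for genes called and, for LPS + G-CDs against LPS, for the 10 with the largest differences; of the further pathway genes, the 4 largest called changes per list and Sqstm1 were named. Genes at an unadjusted p under 0.05, and Vmp1, Wipi2 and Atg13 against LPS, were named after their values were seen. Marchf5 was matched by gene identifier. Gene coordinates are as deposited. Shared sequence was measured as stretches of 50 bases of the longest transcript found in transcripts of other genes, and overlaps as exon bases, both from the GENCODE M21 annotation. Promoter windows are from RefSeq (GRCm38.p6). Tables were made with pandas 2.3.3 in Python 3.11.15.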

Additional observations from a re-analysis of the deposited data

How the results depend on the processing

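Over the 33 tested autophagy and mitophagy genes and both comparisons, 1201 of 1302 alternative values kept their direction and their side of the threshold, 9 lost significance, 29 gained it and 63 reversed, of which 0 were called. These counts include alternatives that cannot change a difference, only its p-values. They are the other filters, eBayes without trend, the 6-library fit, the block, and leaving out a library of the group not compared. The reversals came from 15 genes in each comparison, with differences of at most 0.24 in size, and among the genes with values given in full 1 reversed, which was Vmp1 in LPS + G-CDs against LPS with TPM scaling (-0.0509). For the further pathway genes 302 of 358 held and 56 lost significance, with Atg4a, Vps33a and Stk11 counted apart. With TPM scaling 11 of the 36 genes were called in LPS against control, and with quantile normalization 11 as well, against 6, where 35.6% and 34.4% of all tested genes were called, against 31.3%; the median difference was then -0.233 and -0.0565, where the median of all tested genes moved to -0.21 and -0.0641. In LPS + G-CDs against LPS the median was -0.0781 with TPM scaling, beside -0.12 over all genes. The cause was not tested beyond the change of scaling itself.

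With a library left out, between 5 and 9 of the 36 genes were called in LPS against control and 0 in LPS + G-CDs against LPS, the median difference ranged from -0.0345 to 0.0344 in LPS against control, and the calls among the further pathway genes ranged from 10 to 22 and from 0 to 2, where 21.4% to 37% and 0.095% to 2.21% of all tested genes were called. The median over these genes within a library varied between replicates with an SD of 0.0213 for LPS against control and 0.0909 for LPS + G-CDs against LPS. The median difference of 0.0756 in LPS + G-CDs against LPS is smaller than that SD. With the replicate number as a block 9 genes were called in LPS against control, adding Atg9a, Ulk1 and Bnip3 to the 6, where 35.4% of all tested genes were called, and 0 in LPS + G-CDs against LPS. The block changed no other call named here among the 36 genes. Depth limits Optn, Wipi1 and Map1lc3a, which rest on at most 61 reads in a library. Pink1 (54 to 93 reads) and Atg10 (33 to 74) also rest on few reads.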
